A study of Rattus norvegicus with 8 samples.

Results

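The genes described here are 10 markers of astrocytes, Gfap, S100b, Aqp4, Mlc1, Gja1, Aldh1l1, Sox9, Fgfr3, Ntsr2 and Slc4a4, which were taken by symbol from a count table of 28909 symbols. All 10 were among the 14309 genes that passed a filter of more than 20 reads in at least 2 libraries. The table comes from primary hippocampal neurons of embryonic Sprague-Dawley rats that were grown on porous inserts, so that neurites reached the lower side of the filter while cell bodies stayed on the upper side. Total RNA of the upper side (somata) and of the lower side (processes) was depleted of ribosomal RNA and sequenced. Cultures received either the solvent (control) or picrotoxin (PTX), a blocker of GABA-A receptors, for 48 h from day 18 to day 20 in vitro. The 4 groups were somata control, somata PTX, processes control and processes PTX, with 2 libraries each, and the labels name neurons as the only cell type. The labels do not say whether 2 libraries of a group came from separate cultures, so the p-values measure only the spread between these libraries.

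Astrocytes are the glial cells that wrap synapses and vessels, clear transmitter and buffer potassium and water, and they commonly grow in cultures of hippocampal neurons. Their marker genes encode parts of the cytoskeleton, of the contacts between astrocytes and of membrane transport, besides receptors and a transcription factor. Some astrocyte mRNAs are known to be carried into the fine branches of the cell, so that an RNA sample of thin processes can hold glial as well as neuronal transcripts.

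Library totals ranged from 12290890 to 18455662 counts, of which 9517542 to 11227599 in somata and 4702054 to 5491237 in processes fell on genes outside the mitochondrial genome. Levels are CPM, the counts of a gene per 1000000 counts of its library, after scaling by the trimmed mean of M values (TMM), with factors from 0.486 to 1.93. With this scaling the median gene differed between processes and somata by a log2 fold change of -0.05 in control cultures and of -0.05 in PTX cultures. With scaling by library size alone these medians were -1.86 and -1.87, so all compartment differences below are relative to the bulk of the genes and do not say whether the amount of a transcript was higher in absolute terms. Every difference comes from a quasi-likelihood fit by edgeR to the whole table, its p-values were adjusted over all tested genes by the Benjamini-Hochberg method, and a gene was called at an adjusted p under 0.05. This main fit had no term for the replicate number, and a fit with that number as a block is given for comparison.

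The astrocyte markers were present on both sides of the filter. Of the counts outside the mitochondrial genome, the 10 genes took 0.559% to 0.858% in the 4 somata libraries and 1.9% to 2.5% in the 4 processes libraries, and Gfap alone took 0.262% to 0.437% and 1.39% to 1.96%. This share does not depend on the TMM factors, and the libraries of the 2 compartments did not overlap in it. Gfap made up the larger part of it in processes, and a share without both Gfap and S100b was not computed. The share therefore does not give the direction of the other markers. The summed level of the 10 genes was 2255 to 3496 CPM in somata and 10504 to 14129 CPM in processes. Without Gfap, but still with S100b, it was 1198 to 1715 CPM and 2807 to 3162 CPM. In a bulk sample, fewer cells of a type and less RNA per cell cannot be told apart.

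**Figure D1:**
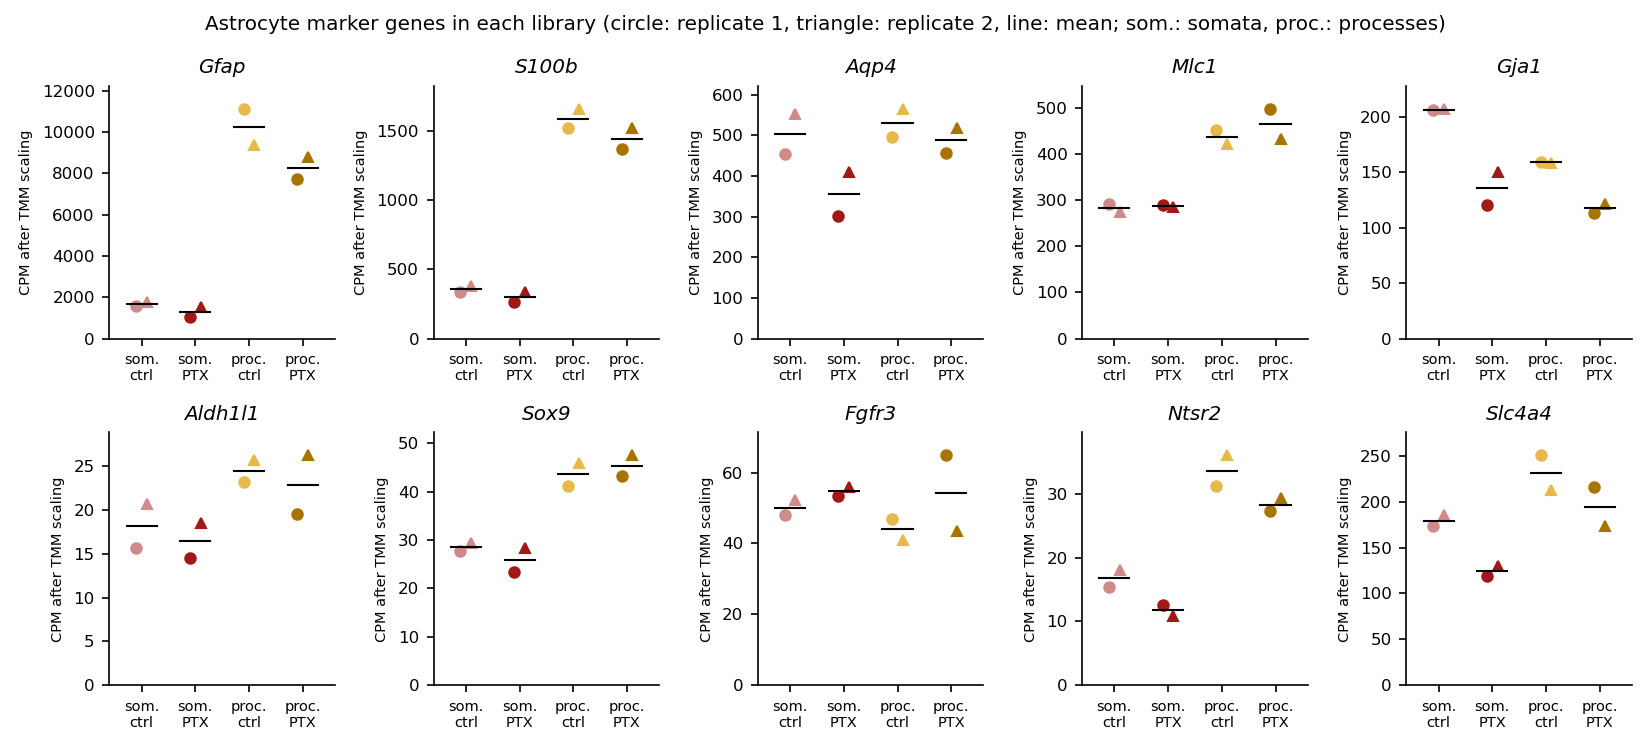
Levels of the 10 astrocyte markers in each of the 8 libraries, as CPM after TMM scaling on axes that start at 0 and differ between genes, with circles for replicate 1, triangles for replicate 2 and lines for the mean of 2 libraries. Gfap lies between 1057 and 1781 CPM in somata and between 7698 and 11111 CPM in processes, whereas Gja1 is highest in the control somata at 206 and 207 CPM; with scaling by library size alone every compartment difference would shift down along with the median gene.

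The comparison of processes with somata asked which transcripts had a higher or lower relative level on the lower side of the filter. It was made in control cultures first, and it does not say which cells held a transcript. Relative to the bulk of the genes, 6 of the 10 markers were called higher in processes and 1 was called lower, whereas of all tested genes 25.8% were called higher and 21.9% lower. The higher genes were Gfap, S100b, Ntsr2, Mlc1, Sox9 and Slc4a4, and the lower gene was Gja1. The median log2 fold change of the 10 markers was 0.52 against -0.05 for all tested genes. The markers did not move as one group, since their log2 fold changes ran from -0.38 for Gja1 to 2.60 for Gfap. With the replicate number as a block 7 markers were higher and 1 lower, against 29.8% and 28% of all tested genes. With scaling by library size alone, 1 marker, Gfap, was called higher and 8 lower, as were 1.33% and 92.7% of all tested genes.

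Gfap, the intermediate filament protein of astrocytes, had the highest compartment difference of the 10. It stood at 1588 and 1781 CPM in the control somata (mean 1685 ± 136, SD, n = 2) and at 11111 and 9382 CPM in the control processes (mean 10247 ± 1222, SD, n = 2). Both processes libraries lay far above both somata libraries, a log2 fold change of 2.60 ± 0.20 (SE) or 6.08-fold, with an adjusted p of 3.15e-06 in edgeR's quasi-likelihood test. In this ranking of log2 fold changes Gfap was 78th of the 14309 genes. It was called higher under every alternative tried, including scaling by library size alone.

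S100b, a calcium-binding protein of the astrocyte cytosol, stood at 334 and 376 CPM in the control somata and at 1517 and 1656 CPM in the control processes. The groups did not overlap, and the log2 fold change was 2.16 ± 0.15 (SE), or 4.47-fold, with an adjusted p of 1.94e-06 (edgeR quasi-likelihood). It ranked 229th of 14309 genes, and with scaling by library size alone its log2 fold change of 0.36 was not called (adjusted p = 0.0599, edgeR).

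Aldh1l1, a folate enzyme of the cytosol that is widely used to mark astrocytes, was a low-count gene with 170 to 528 reads per library. It stood at 15.6 and 20.7 CPM in the control somata and at 23.2 and 25.7 CPM in the control processes. The processes libraries were both above the somata libraries, but the log2 fold change of 0.43 ± 0.19 (SE) was not called (adjusted p = 0.0863, edgeR quasi-likelihood). With the replicate number as a block it was called (adjusted p = 0.00285, edgeR), and it was also called without the second somata control library (adjusted p = 0.044) and without the filter on low counts (adjusted p = 0.0317).

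Aqp4 and Mlc1 encode membrane proteins of the astrocyte endfoot, where Aqp4 is the water channel and Mlc1 takes part in the junctions between endfeet. Aqp4 stood at 454 and 551 CPM in the control somata and at 496 and 565 CPM in the control processes. These values overlapped, and the log2 fold change was 0.08 ± 0.17 (SE), with an adjusted p of 0.72 (edgeR quasi-likelihood). Mlc1 stood at 292 and 274 CPM in the control somata and at 452 and 422 CPM in the control processes. For Mlc1 both processes libraries were higher, by a log2 fold change of 0.63 ± 0.12 (SE) and with an adjusted p of 0.00142 (edgeR quasi-likelihood), and the sign turned only with scaling by library size alone.

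Gja1 encodes connexin 43, the main gap junction protein between astrocytes. It stood at 206 and 207 CPM in the control somata and at 160 and 158 CPM in the control processes. It was the only marker called lower in processes, at a log2 fold change of -0.38 ± 0.12 (SE) and an adjusted p of 0.0268 (edgeR quasi-likelihood). The call was lost when any 1 of the 4 control libraries was left out, with adjusted p from 0.0774 to 0.0876, while the log2 fold change stayed between -0.38 and -0.37.

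The promoter of Gja1 is printed because Gja1 was the only marker called lower in processes and, in a comparison given further on, the only one called with PTX. RefSeq promoter windows of assembly GRCr8, from 250 bases before to 50 after the start of a gene, were matched by symbol for 9 of the 10 markers, all but Sox9. Both strands of each window were searched for TGANTCA, the site of AP-1, a complex of activity-induced Fos and Jun proteins, and for TGACGTCA, the CRE that CREB binds. The other motifs searched were the TATA box in its form TATAAA, the short sequence TTGGCA that factors of the NFI family recognize, and the ACAAAG that SOX factors recognize. The window of Gja1 at chr20:36302314-36302613, plus strand, held a match to TGANTCA that begins at position -58 from the start and is written in capitals.
Gja1: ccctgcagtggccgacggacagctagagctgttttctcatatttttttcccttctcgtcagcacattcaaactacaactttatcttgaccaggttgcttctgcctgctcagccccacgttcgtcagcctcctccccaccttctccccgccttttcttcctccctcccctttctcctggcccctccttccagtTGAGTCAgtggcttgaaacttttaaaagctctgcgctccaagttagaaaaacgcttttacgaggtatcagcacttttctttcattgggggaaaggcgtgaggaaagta
Gja1 was 1 of 9 markers with that motif, which 7.33% of 33469 promoter windows held. TTGGCA was found for Mlc1 and S100b (14% of windows) and ACAAAG for Mlc1 and Aqp4 (18.8%), at separate positions, and 0 of the 9 markers held TATAAA (14.2%) or TGACGTCA (1.83%). A match of letters is a description of the window and not a binding site.

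Because a ratio of 2 genes within a library needs no scaling, the reads of each other marker were divided by those of Gja1, which was chosen for this after its values were seen. For Gfap this ratio was 7.71 to 10.2 in the 4 somata libraries and 59.3 to 72.4 in the 4 processes libraries. For S100b it was 1.62 to 2.24 and 9.5 to 12.5, for Ntsr2 0.072 to 0.104 and 0.196 to 0.242, and for Aqp4 2.20 to 2.73 and 3.11 to 4.27. In 8 of the 9 markers all processes libraries lay above all somata libraries, as they did in 23.5% of all tested genes, and Fgfr3 was the marker whose ranges overlapped, at 0.233 to 0.444 and 0.26 to 0.573. The ratios show unequal differences among the markers and not which of the 2 genes in a ratio differed. Gja1 had the lowest log2 fold change of the markers, -0.38 in control and -0.21 in PTX cultures. Ratios to it therefore leaned upward in processes from the start, and their number is no separate sign of higher levels there.

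**Figure D2:**
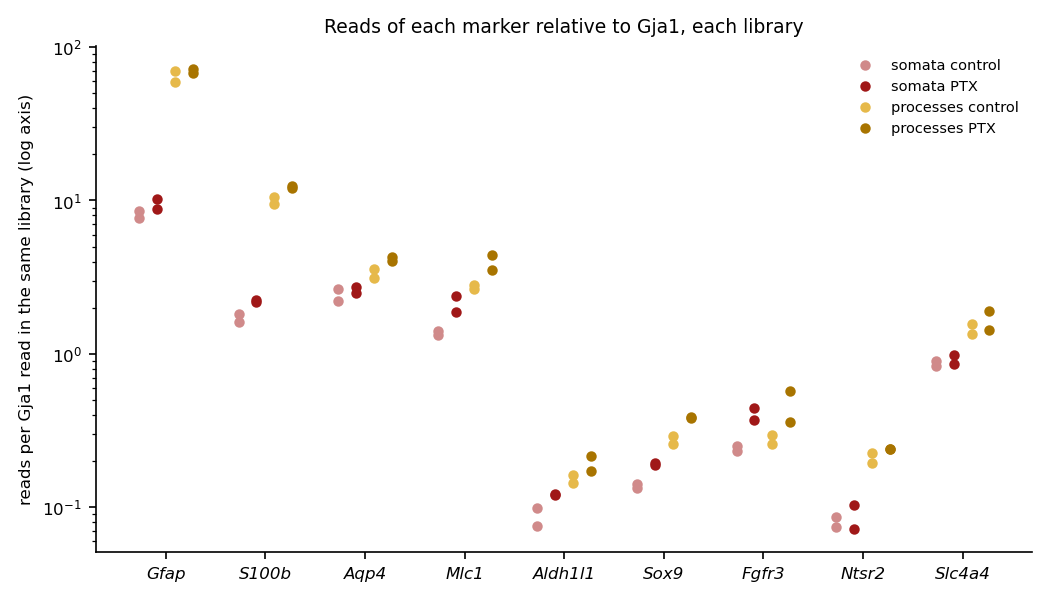
Reads of each of 9 astrocyte markers per read of Gja1 in the same library, on a log axis, with 1 point per library and colours for the 4 groups. The points of somata and processes are apart for 8 markers, as for Gfap at 7.71 to 10.2 in somata and 59.3 to 72.4 in processes, and overlap for Fgfr3. No scaling between libraries enters these values, but Gja1 was chosen after its values were seen and had the lowest compartment difference of the markers.

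Among the receptors and transporters, Ntsr2, a neurotensin receptor found on astrocytes, stood at 15.5 and 18 CPM in the control somata and at 31.2 and 36.1 CPM in the control processes. Both processes libraries were higher, by a log2 fold change of 1.0 ± 0.14 (SE) and with an adjusted p of 0.00017 (edgeR quasi-likelihood). Slc4a4, the sodium bicarbonate cotransporter that regulates pH, stood at 173 and 185 CPM in the control somata and at 251 and 213 CPM in the control processes. Its log2 fold change of 0.37 ± 0.14 (SE) was just past the threshold (adjusted p = 0.0423, edgeR quasi-likelihood). This call was lost without either somata control library (adjusted p = 0.184 and 0.0897), without the first processes control library (0.224), without either somata PTX library (0.0562 and 0.054), with upper quartile scaling (0.305) and where each library had to hold 10 reads or more (0.0801). Fgfr3, a receptor for fibroblast growth factors, stood at 48 and 52.2 CPM in the control somata and at 47.1 and 41.1 CPM in the control processes. Both processes values of Fgfr3 were below the somata values, but the log2 fold change of -0.18 ± 0.16 (SE) was not called (adjusted p = 0.379, edgeR quasi-likelihood).

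Sox9, the only transcription factor of the group, drives the astrocyte fate. It stood at 27.6 and 29.4 CPM in the control somata and at 41.1 and 45.9 CPM in the control processes. Both processes libraries were higher, by a log2 fold change of 0.61 ± 0.13 (SE) and with an adjusted p of 0.00291 (edgeR quasi-likelihood).

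In PTX-treated cultures the same comparison of processes with somata called 7 of the 10 markers higher and 0 lower, where 25.7% of all tested genes were called higher and 24% lower. The median log2 fold change of the markers was 0.67 against -0.05 for all tested genes, and with the replicate number as a block 8 markers were called higher and 0 lower, against 30% and 29.6% of all tested genes. With scaling by library size alone 2 were called higher and 8 lower, as were 1.26% and 93.1% of all tested genes. Gfap stood at 1057 and 1531 CPM in the PTX somata and at 7698 and 8799 CPM in the PTX processes, a log2 fold change of 2.67 ± 0.20 (SE), and S100b at 264 and 338 CPM against 1368 and 1517 CPM, a log2 fold change of 2.26 ± 0.15 (SE). Their adjusted p-values were 2.54e-06 and 1.44e-06 in edgeR's quasi-likelihood test, and they ranked 74th and 177th of the 14309 genes.

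Ntsr2, Sox9, Mlc1 and Slc4a4 were called higher in the processes of PTX cultures too, with log2 fold changes of 1.27 ± 0.14, 0.81 ± 0.13, 0.70 ± 0.12 and 0.65 ± 0.14 (SE) and adjusted p (edgeR quasi-likelihood) of 3.54e-05, 0.000436, 0.000662 and 0.00251. Aqp4, which had shown no difference past the threshold in control cultures, stood at 302 and 411 CPM in the PTX somata and at 458 and 519 CPM in the PTX processes. Its log2 fold change was 0.45 ± 0.17 (SE), with an adjusted p of 0.0413 (edgeR quasi-likelihood). The call of Aqp4 was lost without the first somata PTX library (adjusted p = 0.313), without the first or the second processes PTX library (0.0561 and 0.193), with upper quartile scaling (0.18) and where each library had to hold 10 reads or more (0.0681). Aldh1l1, at 14.5 and 18.5 CPM against 19.5 and 26.2 CPM, had a log2 fold change of 0.48 ± 0.19 (SE) and an adjusted p of 0.0579 in edgeR's quasi-likelihood test, and of 0.00155 with the replicate block. Aldh1l1 was also called by the likelihood ratio test (adjusted p = 0.043) and without the filter (0.0126), and it was called without the first or the second somata control library (0.0468 and 0.0476), the second somata PTX library (0.0324) or the first processes PTX library (0.0288).

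The other 2 markers did not pass the test in PTX cultures. Gja1, at 120 and 151 CPM in the PTX somata and 113 and 122 CPM in the PTX processes, had a log2 fold change of -0.21 ± 0.12 (SE) and an adjusted p of 0.188 (edgeR quasi-likelihood), and its groups overlapped. It was called lower with upper quartile scaling (adjusted p = 0.0233) and with scaling by library size alone. Fgfr3, at 53.5 and 55.9 CPM against 64.9 and 43.6 CPM, had a log2 fold change of -0.02 ± 0.16 (SE) and an adjusted p of 0.947. The 2 processes PTX libraries of Fgfr3 lay on either side of the somata libraries.

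**Figure D3:**
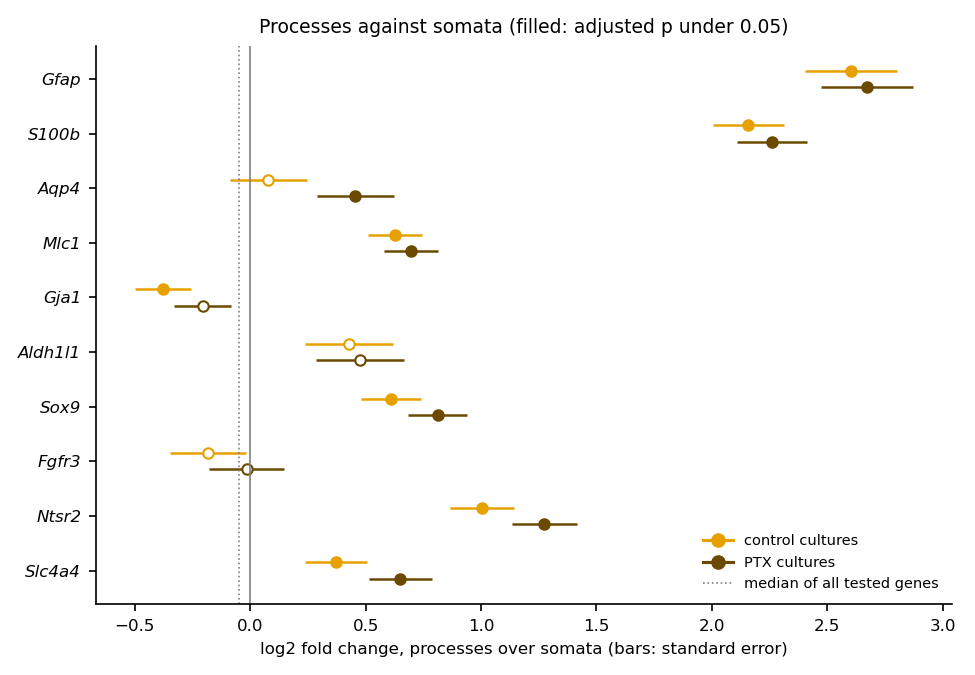
Log2 fold change of processes over somata for the 10 astrocyte markers in control and in PTX cultures, with bars of 1 standard error from edgeR's quasi-likelihood fit, filled points for an adjusted p under 0.05 and a dotted line at the median of all tested genes in control cultures. Gfap and S100b stand apart from the other 8 at 2.16 to 2.67, and Gja1 and Fgfr3 lie at or below 0; with scaling by library size alone the median gene lies at -1.86 and only Gfap and S100b keep a positive value.

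The second question was whether blocking inhibition changes transcript levels in each compartment. In somata, 1 of the 10 markers was called lower with PTX and 0 higher, where 1.5% of all tested genes were called lower and 2.09% higher. The median log2 fold change of the markers was -0.31 against -0.01 for all tested genes. With the replicate number as a block, 4 markers were called lower, namely Gja1, Slc4a4, Ntsr2 and Aqp4, and 0 higher, and the same fit called 6.79% of all tested genes lower and 7.21% higher.

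Gja1 was the marker called without the block. It fell from 206 and 207 CPM in the control somata to 120 and 151 CPM in the PTX somata, and the libraries of the 2 groups did not overlap. The log2 fold change was -0.61 ± 0.12 (SE), or 0.656 times the control level, with an adjusted p of 0.0215 in edgeR's quasi-likelihood test and of 5.97e-05 with the block. The call was lost without the first or the second somata control library (adjusted p = 0.101 and 0.132), without the first somata PTX library (0.22) and with scaling by library size alone (0.0763). Without the first somata PTX library the log2 fold change was -0.46.

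Slc4a4, Ntsr2 and Aqp4 also had both PTX somata libraries below both control libraries. Slc4a4 stood at 173 and 185 CPM in the control and at 119 and 129 CPM in the PTX somata, a log2 fold change of -0.53 ± 0.13 (SE) with an adjusted p of 0.0597 (edgeR quasi-likelihood), and 0.000885 with the block. Ntsr2 stood at 15.5 and 18 CPM and at 12.6 and 10.8 CPM, a log2 fold change of -0.51 ± 0.14 (SE) with an adjusted p of 0.0699, and 0.00452 with the block. Aqp4 stood at 454 and 551 CPM and at 302 and 411 CPM, a log2 fold change of -0.50 ± 0.17 (SE) with an adjusted p of 0.156, and 0.000663 with the block. Without the block, all 3 genes were also called when no low-count filter was used (adjusted p = 0.00332 for Slc4a4, 0.0221 for Ntsr2 and 0.00894 for Aqp4), and Slc4a4 and Ntsr2 were called by the likelihood ratio test (0.0115 and 0.0196). Slc4a4 was called besides by DESeq2 (0.0122), with upper quartile scaling (0.0474), with only the libraries compared (0.0294) and without the first or the second processes PTX library (0.0449 and 0.0454).

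Gfap in somata had a log2 fold change with PTX of -0.38 ± 0.19 (SE) and an adjusted p of 0.378 in edgeR's quasi-likelihood test, and of 0.0516 with the block. The 2 PTX libraries of Gfap, at 1057 and 1531 CPM, were both below the control libraries at 1588 and 1781 CPM, the second by a narrow margin. S100b, at 264 and 338 CPM against 334 and 376 CPM, overlapped, with a log2 fold change of -0.24 ± 0.15 (SE). Sox9, Aldh1l1, Mlc1 and Fgfr3 had log2 fold changes of -0.14, -0.14, 0.02 and 0.13, and none of the 4 passed the test with or without the block. The first somata PTX library was the lowest of the 4 somata libraries for Gfap, S100b, Aqp4, Gja1, Aldh1l1, Sox9 and Slc4a4. Without it the median log2 fold change of the 10 markers was -0.11, and without the second somata PTX library it was -0.42.

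In processes, 0 of the 10 markers were called with PTX by edgeR's quasi-likelihood test, where 1.64% of all tested genes were called higher and 2.1% lower. At an unadjusted p under 0.05 there was 1 marker, Gja1, of 10, against 16.6% of all tested genes. DESeq2 called 0 markers after adjustment, while the likelihood ratio test and the fit with the replicate block called 1 each, and the block called 6.09% of all tested genes lower. The median log2 fold change of the markers was -0.13 against -0.01 for all tested genes, and it was -0.05 without the first and -0.21 without the second processes PTX library.

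Gja1 stood at 160 and 158 CPM in the control processes and at 113 and 122 CPM in the PTX processes. Both PTX libraries were lower, as in somata, by a log2 fold change of -0.44 ± 0.12 (SE), with an adjusted p of 0.0907 in edgeR's quasi-likelihood test. With the replicate block the adjusted p of Gja1 was 0.00421, with the likelihood ratio test 0.0422 and without the filter on low counts 0.0372. Gfap fell short of the threshold at 11111 and 9382 CPM in control and 7698 and 8799 CPM in PTX processes, a log2 fold change of -0.31 ± 0.19 (SE) with an adjusted p of 0.458 (edgeR quasi-likelihood). Ntsr2 at 31.2 and 36.1 CPM against 27.3 and 29.4 CPM, and Slc4a4 at 251 and 213 CPM against 216 and 174 CPM, each had a log2 fold change of -0.25 ± 0.14 (SE). The PTX libraries were both lower for Ntsr2 and overlapped the control libraries for Slc4a4.

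The log2 fold changes of S100b, Aqp4, Aldh1l1, Sox9 and Mlc1 in processes lay between -0.14 and 0.09, below the standard error of each gene. Fgfr3 had the highest value, 0.30 ± 0.17 (SE, adjusted p = 0.429, edgeR quasi-likelihood), which rested on the first PTX library at 64.9 CPM, since the second, at 43.6 CPM, lay within the control values of 47.1 and 41.1 CPM. Without that library the log2 fold change of Fgfr3 was -0.02.

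**Figure D4:**
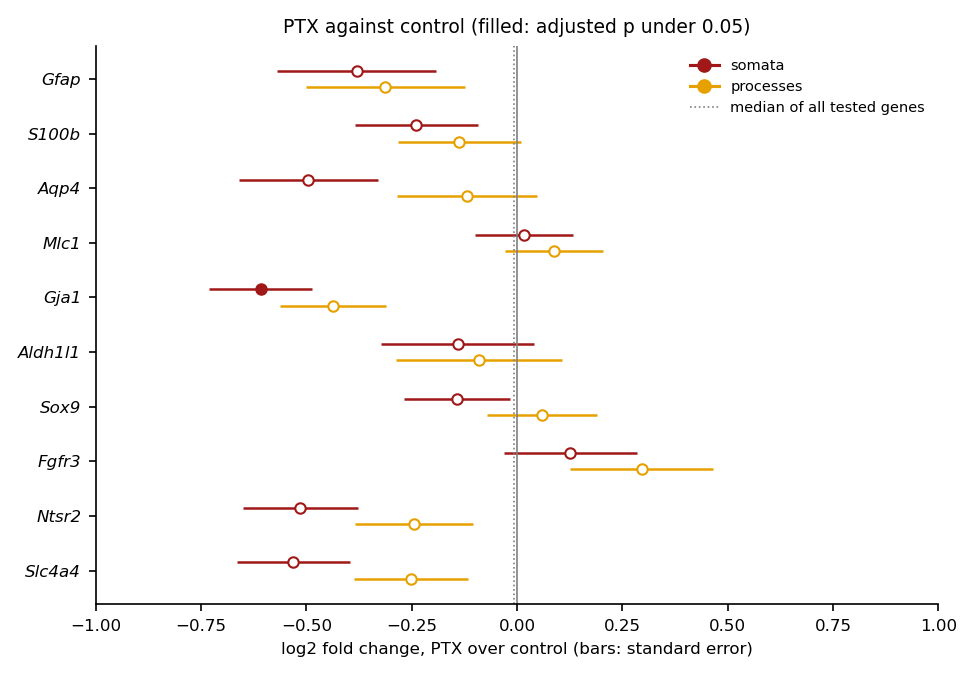
Log2 fold change of PTX over control for the 10 astrocyte markers in somata and in processes, with bars of 1 standard error from edgeR's quasi-likelihood fit and filled points for an adjusted p under 0.05. Gja1 in somata, at -0.61, is the only filled point, and Gja1 in processes lies at -0.44; the dotted line is the median of all tested genes in somata.

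An interaction term compared the effect of PTX in processes with its effect in somata, and it was called for 0 of the 10 markers and for 0% of the 14309 tested genes. At an unadjusted p under 0.05 there were 0 markers with edgeR's quasi-likelihood test, with the likelihood ratio test and with DESeq2, against 4% of all tested genes with the first, and 1 marker with the replicate block, where the smallest adjusted p of a marker was 0.384. The estimates of the 10 markers ran from 0.05 for Aldh1l1 to 0.38 ± 0.23 (SE) for Aqp4. For Gja1 the estimate was 0.17 ± 0.17 (SE), so that its call in somata and not in processes does not show that the compartments differed.

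Genes that work with the markers were described through a list of 36 partners, of which 32 were tested. In control cultures 12 of the 32 were called higher in processes and 5 lower, relative to the bulk of the genes. The shares of all tested genes were 25.8% higher and 21.9% lower. Among the partners of Gfap in the filament network, Synm (synemin) and Nes (nestin) had log2 fold changes of 2.36 ± 0.11 and 2.35 ± 0.19 (SE), close to that of Gfap. Vim (vimentin), picked after its value was seen, had a log2 fold change of 0.11 ± 0.12 (SE, adjusted p = 0.473, edgeR quasi-likelihood). S100a13, of the S100 family, had a log2 fold change of 2.03 ± 0.26 (SE). The 3 lowest called partners were Fgf9, a growth factor that binds Fgfr3, at -1.45, and the bicarbonate transporters Slc4a8 and Slc4a7, relatives of Slc4a4, at -0.97 and -0.95.

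With PTX, 2 partners were called lower and 0 higher in somata, and 1 lower and 2 higher in processes. The same fit called 1.5% of all tested genes lower and 2.09% higher in somata, and 2.1% and 1.64% in processes. Synm was lower in both compartments. It fell from 55.5 ± 3.61 to 39 ± 0.54 CPM (mean ± SD, n = 2) in somata and from 286 ± 7.98 to 144 ± 3.2 CPM in processes, log2 fold changes of -0.51 ± 0.10 and -0.99 ± 0.10 (SE) with adjusted p (edgeR quasi-likelihood) of 0.0226 and 0.00179. The neurotensin receptor Ntsr1, the relative of Ntsr2, was lower in somata at -1.71 ± 0.32 (SE, adjusted p = 0.0149, edgeR). Ntsr1 had low levels, at 5.19 ± 1.74 CPM in control and 1.58 ± 0.16 CPM in PTX somata (mean ± SD, n = 2). Sort1, a sorting receptor that also binds neurotensin, and Fgfr2 were higher in processes at 0.93 ± 0.11 and 0.62 ± 0.15 (SE), with adjusted p of 0.00336 and 0.0476 (edgeR). With the replicate block 3 partners were higher and 6 lower in somata, and 5 higher and 3 lower in processes. That fit called 7.21% of all tested genes higher and 6.79% lower in somata, and 5.1% and 6.09% in processes.

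Of a list of 40 further astrocyte genes 36 were tested. The lists overlap, so a gene can be counted in several, such as Kcnj10 and Hepacam here and among the partners. In control cultures 12 of the 36 were called higher in processes and 9 lower, near the 25.8% and 21.9% of all tested genes, with a median log2 fold change of -0.12 against 0.52 for the 10 markers and -0.05 for all tested genes. The highest were Ttyh1, an anion channel protein, at 2.04 ± 0.13 (SE), Kcnj10, the Kir4.1 potassium channel, at 1.63 ± 0.45, and Bmpr1b, a receptor for bone morphogenetic proteins, at 1.40 ± 0.13. The lowest were the amino acid transporter Slc7a10 at -1.23 ± 0.22, the transcriptional regulator Id3 at -0.87 ± 0.16 and the urea transporter Slc14a1 at -0.76 ± 0.16. Kcnj10 had a larger error than the others and its 2 libraries differed within each group, with SDs of 6.24 around 17.2 CPM in control somata and of 17.2 around 53.5 CPM in control processes. In PTX cultures 12 of the 36 were higher and 5 lower, beside 25.7% and 24% of all tested genes. With the replicate block the lower ones were 14 in control and 9 in PTX cultures, beside 28% and 29.6% of all tested genes.

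With PTX 3 of the 36 were called in somata and 4 in processes, where 1.5% to 2.1% of all tested genes were called in each direction. In somata Cbs, an enzyme of sulfur amino acid metabolism, was called higher, and Slc6a11, a GABA transporter, and Id3 were called lower. In processes Cbs and the endothelin receptor Ednrb were called higher and Id3 and Pla2g7 lower. Cbs rose from 12.6 ± 1.78 to 27.7 ± 9.62 CPM (mean ± SD, n = 2) in somata and from 14.8 ± 0.62 to 35.9 ± 11.2 CPM in processes, log2 fold changes of 1.13 ± 0.25 and 1.28 ± 0.27 (SE) with adjusted p (edgeR quasi-likelihood) of 0.0303 and 0.0283. Ednrb rose in processes from 53.4 ± 0.5 to 97.8 ± 12.7 CPM, at 0.87 ± 0.13 (SE, adjusted p = 0.0055). Id3 fell by 0.62 in somata and by 0.81 in processes on the log2 scale (adjusted p = 0.0467 and 0.0462), Slc6a11 by 0.80 in somata (0.0179) and Pla2g7 by 0.77 in processes (0.0416). With the block 3 of the 36 were higher and 9 lower in somata, and 5 higher and 5 lower in processes. It called 7.21% of all tested genes higher and 6.79% lower in somata, and 5.1% and 6.09% in processes.

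Of 33 genes linked to reactive astrocytes, 23 were tested. In control cultures 2 were higher in processes, S100a10 at 0.70 and Fkbp5 at 0.67, and 5 were lower (9 with the replicate block). The lowest were Ptgs2 at -1.58, Emp1 at -1.39 and Amigo2 at -1.22. Emp1 had low levels, with means of 2.57 CPM in control somata and 0.97 CPM in control processes. The shares of all tested genes were 25.8% higher and 21.9% lower (28% lower with the block). With PTX, Aspg and Ptgs2 were called higher in somata at 1.47 ± 0.33 and 1.08 ± 0.19 (SE), with adjusted p of 0.0341 and 0.0111 (edgeR quasi-likelihood), and 0 were called in processes. Aspg had low levels, at 1.77 ± 0.1 CPM in control and 4.94 ± 2.05 CPM in PTX somata (mean ± SD, n = 2). The main fit called 2.09% of all tested genes higher in somata and 1.64% in processes. With the replicate block 7 were higher and 0 lower in each compartment, where this fit called 7.21% of all tested genes higher in somata and 5.1% in processes. Ptgs2 encodes cyclooxygenase 2, which excited neurons express as well. Gfap, the most widely used sign of reactive astrocytes, was counted with the markers and is not on this list. Its log2 fold change with PTX was -0.38 ± 0.19 (SE) in somata and -0.31 ± 0.19 in processes, and neither was called.

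Of 14 astrocyte genes that act on synapses, 12 were tested, and in control cultures 2 were higher and 5 lower in processes. Among all tested genes 25.8% were higher and 21.9% lower. Sparc, a secreted matrix protein, was the highest at 2.94 ± 0.14 (SE), above Gfap. Its relative Sparcl1, also on the list of further astrocyte genes, was at 0.40 ± 0.13. The thrombospondins Thbs1 and Thbs2 and the glypican Gpc4 were lower at -1.48, -1.38 and -0.67. With PTX 0 of the 12 were called in either compartment (edgeR quasi-likelihood), where 1.5% to 2.1% of all tested genes were called in each direction. With the block 2 were higher and 3 lower in somata and 2 higher and 0 lower in processes. The block called 7.21% of all tested genes higher and 6.79% lower in somata, and 5.1% and 6.09% in processes. Of 10 genes of radial glia, 3 were higher in processes of control cultures and 0 lower, beside the same 25.8% and 21.9% of all tested genes. The 3 were Nes, which was also counted among the partners, at 2.35, Fabp7 at 1.34 and Pax6 at 0.96.

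**Figure D5:**
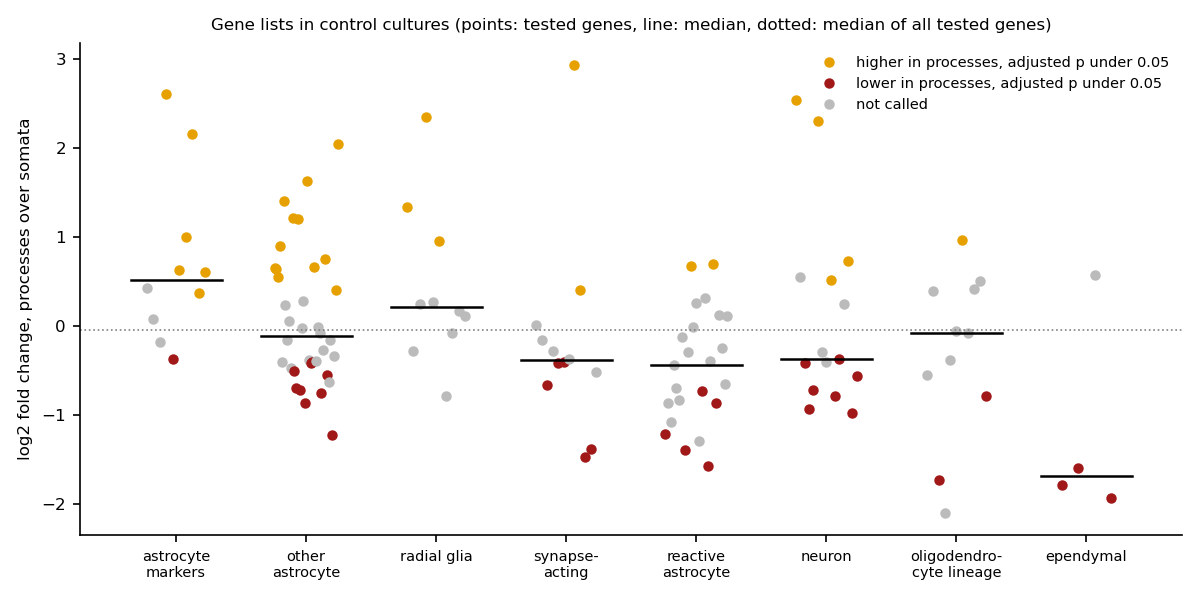
Log2 fold change of processes over somata in control cultures for the tested genes of 8 lists, with 1 point per gene, a line at the median of each list and a dotted line at the median of all tested genes (-0.05). The 10 astrocyte markers have a median of 0.52 and the 36 further astrocyte genes one of -0.12, and both lists spread over both sides of 0; with scaling by library size alone the dotted line would lie at -1.86.

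Markers of other cells were measured in the same libraries. Their calls are given for control cultures, where 25.8% of all tested genes were higher in processes and 21.9% lower. With the replicate block these shares were 29.8% and 28%. The 15 neuronal genes were all tested and summed to 2590 to 3139 CPM in somata and 5024 to 7101 CPM in processes. Without Map2, the most abundant, the sums were 1778 to 2154 CPM and 1655 to 2408 CPM, which overlap. Map2 and Camk2a, known dendritic mRNAs, had log2 fold changes of 2.30 and 2.55. In all, 4 neuronal genes were higher in processes and 7 lower. Of 12 genes of the oligodendrocyte lineage 11 were tested, and 1 was higher and 2 were lower (4 and 4 with the replicate block). The sum of this list was 315 to 561 CPM in somata and 518 to 704 CPM in processes. Without Olig1, the most abundant, it was 231 to 424 CPM and 321 to 414 CPM, which overlap. Of the 10 endothelial and mural genes 2 were tested, at a sum of 16.8 to 22.6 and 8.93 to 10.8 CPM, and Kdr and Pdgfrb were both lower in processes. Of 6 fibroblast genes 0 were called (1 higher and 4 lower with the block), and of 4 tested ependymal genes 3 were lower in processes. Snhg11, a nuclear RNA, was lower in processes at -1.09 ± 0.21 (SE). The part of these cells in the levels of the astrocyte markers was not tested.

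Genes of other lists were called with PTX beside the astrocyte markers. The main fit called 2.09% of all tested genes higher and 1.5% lower in somata, and 1.64% and 2.1% in processes. All 11 proliferation genes had positive log2 fold changes in both compartments, 1 was called in somata (Cdk1 at 0.98) and 4 in processes, led by Cdk1 at 1.66, Ccnb1 at 1.27 and Top2a at 1.01, and their sum was 138 to 242 CPM in somata and 179 to 352 CPM in processes. Of the neuronal genes, 2 were called higher and 2 lower in each compartment. The lower ones were Camk2a and Rbfox3 in somata, at -1.13 and -0.67, and Camk2a and Syn1 in processes, at -1.45 and -0.76. The higher ones were Gad2 and Gad1 in somata, at 0.92 and 0.82, and Gad2 and Slc17a7 in processes, at 0.92 and 0.73. With the replicate block 7 proliferation genes were higher in somata and 8 in processes. Of the neuronal genes, the block called 2 higher and 8 lower in somata, and 3 higher and 8 lower in processes. That fit called 7.21% of all tested genes higher and 6.79% lower in somata, and 5.1% and 6.09% in processes. The part of the proliferation and neuronal genes in the values of the astrocyte markers was not tested.

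The genes whose pattern over the 8 libraries was most like that of the markers were found by Pearson's r between log2 CPM and the mean of the centred log2 CPM of the 10 markers, among the 10198 genes that averaged 5 CPM or more. The first 10 were Ndst1, Chd4, Pla2g16, Cacng4, Igfbp5, Slc4a3, Rassf2, Tmem229a, Sox12 and Mx2, with r from 0.998 to 0.992, and 0 of them were on the list of further astrocyte genes. Igfbp5, for instance, stood at a mean of 355 CPM in control somata, 263 in PTX somata, 1278 in control processes and 1012 in PTX processes. All points share the 8 libraries and mainly follow the step between the compartments. Each marker was set against the mean of the other 9 in the same way, which gave r of 0.972 for Gfap, 0.967 for Sox9, 0.966 for S100b and 0.959 for Ntsr2, but 0.702 for Aqp4, -0.25 for Gja1 and -0.40 for Fgfr3.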

How the data were processed

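Per the labels, ribosome-depleted total RNA of 8 libraries (2 per condition) was sequenced with a directional kit. After trimming, the authors mapped the reads to Rnor_6.0 and used featureCounts with an Ensembl annotation, and they pooled genes of the same symbol. The methods name Subread and the submitters' processing notes name STAR as the aligner. What they deposited are raw counts, 1 whole number for each of 28909 symbols and each library. The other deposited tables hold the authors' own PTX comparisons (fold changes and p-values) and were not used. Genes that overlap or resemble each other may have exchanged reads, and how strand was counted is not given in the sources used here.

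The filter kept 14309 genes whose count exceeded 20 in 2 or more libraries. TMM factors, glmQLFit and glmQLFTest came from edgeR 4.0.16 in R 4.3.3, with 1 coefficient per condition over all 8 libraries and Benjamini-Hochberg adjustment over all tested genes at 0.05. The SE is the log2 fold change divided by the root of F. The interaction is the effect of PTX in processes less its effect in somata. Other settings tried were DESeq2 1.42.0, the likelihood ratio test, other scalings and filters, mitochondrial genes left out, only the libraries compared, other thresholds, a replicate block and each library left out.

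Libraries of the same replicate number were taken as pairs only in the fit with the replicate block. The main fit, which gave the calls named first, ignored the replicate number. Across genes, replicate 2 minus replicate 1 correlated between conditions with r from 0.274 to 0.54 in all 6 pairs of conditions, and the block lowered the common dispersion from 0.0132 to 0.00459. The labels give the numbers, and the methods do not say what they mark.

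The 10 markers and the 14 gene lists were chosen with earlier results of these data known. Named are the 10 markers and, from each other list and comparison, at most the 3 called genes that rose most and the 3 that fell most. The 10 genes most like the markers were taken by Pearson's r at a mean of at least 5 CPM, with a prior count of 2. Levels were not compared between genes, since lengths were not used here. The fits were run on counts simulated without a replicate effect. The only check required was that the main fit gave back the simulated size of change, and the false calls are not given here. Promoter windows were taken from RefSeq (GRCr8), a later assembly than that of the counts. A single gene and the result that needs it are not reported here.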

Additional observations from a re-analysis of the deposited data

How the results depend on the processing

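Scaling by library size alone shifted all genes down together, so the signs it turned say nothing about single markers. Under it, log2 fold changes of processes over somata turned negative in control cultures for Aqp4 (-1.72), Mlc1 (-1.18), Aldh1l1 (-1.38), Sox9 (-1.19), Ntsr2 (-0.80) and Slc4a4 (-1.44) and in PTX cultures for Aqp4 (-1.37), Mlc1 (-1.14), Aldh1l1 (-1.34), Sox9 (-1.01), Ntsr2 (-0.55) and Slc4a4 (-1.18), while Gfap and S100b stayed positive and Gja1 and Fgfr3 negative. It left 1 marker higher and 8 lower in control cultures, 2 higher and 8 lower in PTX cultures, and 0 lower with PTX in somata. Upper quartile scaling gave 1 marker lower in the processes of PTX cultures, 2 lower with PTX in somata, and reversed Aqp4 in control cultures (-0.12) and Mlc1 with PTX in somata (-0.0036), and DESeq2 reversed Fgfr3 in PTX cultures (0.0050); these 3 were not called in either form.

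In control cultures 0 markers were lower in processes at an adjusted p under 0.01, and 0 to 1 when a library was left out. With PTX in somata, 3 markers were lower at an adjusted p under 0.1, 0 under 0.01, 3 with the likelihood ratio test, 2 with DESeq2, 4 without the filter, 2 with only the libraries compared and 4 with the replicate block, and 0 to 2 when a library was left out. In processes, 1 marker was lower with PTX at an adjusted p under 0.1, with the likelihood ratio test, without the filter and with the replicate block. The cause of these differences was not tested. The block changed no call of a marker other than those given beside the results.

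Leaving out 1 library turned the sign of these markers, none of them called: Aqp4 in control cultures (-0.058 to 0.22), Fgfr3 in PTX cultures (-0.33 to 0.25), with PTX in somata Mlc1 (-0.039 to 0.058) and Aldh1l1 (-0.33 to 0.065), with PTX in processes Mlc1 (-0.019 to 0.19), Aldh1l1 (-0.33 to 0.10), Sox9 (-0.018 to 0.14) and Fgfr3 (-0.015 to 0.56), and in the interaction Gfap (-0.17 to 0.36), S100b (-0.058 to 0.29), Mlc1 (-0.036 to 0.17), Aldh1l1 (-0.18 to 0.24) and Fgfr3 (-0.14 to 0.43). Of the marker values under all alternatives, 145 of 170 in control cultures, 146 of 170 in PTX cultures, 149 of 170 with PTX in somata, 162 of 170 with PTX in processes and 149 of 160 in the interaction kept their direction and their side of the threshold. Each group had 2 libraries, so every spread rests on few values.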

Other observations

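Between replicate 2 and replicate 1 the markers differed in the same direction in several groups. S100b, Aqp4, Aldh1l1 and Sox9 were higher in replicate 2 in 4 of 4 groups, by 0.13 to 0.35, 0.18 to 0.44, 0.15 to 0.42 and 0.09 to 0.28 on the log2 scale. Mlc1 was higher in replicate 2 in 0 of 4 groups, with differences of -0.21 to -0.02. The largest difference between replicates for Gfap was 0.53, in the somata of PTX cultures, and for Fgfr3 it was -0.57, in the processes of PTX cultures.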
